A study of Homo sapiens with 8 samples.

Results

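The 7 genes CCNI, CCNG1, CCNG2, CCND1, CCND2, CCND3 and CCNB1, which encode cyclins, were followed as bound RNAs in maps of RBFOX2 and TIA1 binding. Their members were the deposited peaks that overlapped, on the strand of the gene, a span of hg19 given in whole kilobases for each gene. This rule found 15 of 7442 peaks. All 15 were RBFOX2 peaks (15 of 4227 in that list) and 0 of 3215 TIA1 peaks lay in any of the spans. CCNI held 13 of the 15, CCND2 held 2, and the other 5 genes held 0. Of these genes, CCNI was chosen by the number of RBFOX2 peaks in its span. The 5 genes with 0 peaks were not chosen for a high number. All 7 were chosen with the peak counts, folds and p-values of these lists already known. The counts, folds and p-values below therefore describe the peaks and are not tested.

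The libraries were made by eCLIP, which fixes RNA to the proteins that touch it with ultraviolet light, pulls down 1 protein and sequences the RNA that comes with it. The cells for all 8 were HEK293T, a transformed line of human embryonic kidney origin, with 2 RBFOX2 clip libraries set against 2 RBFOX2 input libraries and 2 TIA1 clip libraries set against 2 TIA1 input libraries. Per the labels, every library came from cells crosslinked with 600 mJ, an anti-HA tag antibody was used for each clip library and none for each input library, and no genotype, drug or time point separates the groups. No label describes the tagged construct. A protocol entry shared by all libraries speaks of TIA1 beads, RBFOX2 included, and whether the replicates are biological or technical differs between label fields. Each protein has a single deposited list that joins both replicates, so neither a value per library nor a replicate error exists in the files, and the read depth behind a peak is unknown. The lists hold no RNA levels, so neither the cell line nor the level of these 7 mRNAs could be checked. In a list of this kind a span with no peak is one where nothing passed the authors' limits, not one shown to be free of binding.

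Cyclins are regulatory proteins best known as the partners that switch on cyclin-dependent kinases. The D-type cyclins couple growth signals to entry into the cell cycle, cyclin B1 drives mitosis, and the G-type cyclins and cyclin I form a more distant branch with roles outside the core cell cycle engine. RBFOX2 is a splicing regulator that recognises the element GCATG (written with U for T in RNA) and also binds 3′ untranslated regions (3′ UTRs), the part of an mRNA after its stop codon. TIA1 prefers U-rich RNA and acts in splicing, in translational control and in stress granules.

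The RBFOX element was looked up in the transcripts of these genes, since CCNI and CCND2 were the only ones with RBFOX2 peaks. One principal transcript per gene was taken from GENCODE release 29, which is on GRCh38, and its letters were read on the RNA strand alone. All 7 genes had one. The CCNI transcript held 2 copies of GCATG, both in its 3′ UTR of 1061 bases, at 401 and 638 bases from the transcript's 3′ end. The CCND2 transcript held 10, of which 8 were in its 3′ UTR of 5341 bases. The other copies in CCND2 and those in the other genes are not shown. The windows of 25 bases shown here, with the element in capitals, carry both CCNI copies. Of the 8 CCND2 copies in the 3′ UTR, they carry the 2 nearest its start.
CCNI, 638 bases from the 3′ end: tgaactttatGCATGttgatctata
CCNI, 401 bases from the 3′ end: cttaaaagtgGCATGtaattaggac
CCND2, 4914 bases from the 3′ end: gccatttatgGCATGattagattgc
CCND2, 4419 bases from the 3′ end: gtgctgattgGCATGtctggttcac
The peaks are in hg19 coordinates and could not be placed on these transcripts, so a match is only a property of the RNA and not a bound site.

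CCNI encodes cyclin I, an atypical cyclin that is abundant in post-mitotic tissues such as muscle and brain and has been linked to the kinase CDK5 and to cell survival. Its span runs from position 77968001 to 77998000 on the minus strand of chromosome 4. The 13 RBFOX2 peaks there fell within 755 bases and covered 354 bases, 1.18% of the span of 30 kb. They formed 2 sites when peaks at most 50 bases apart were joined, separated by 359 bases without a peak. Both sites lay at the 3′ border of the span, between 366 and 1120 bases from it, and no RBFOX2 peak lay in the rest of the span. The last exon of the CCNI transcript is 1505 bases long in GENCODE, but the border is rounded to a kilobase, so the peaks were not assigned to an exon.

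The site nearer the 3′ border ran from 77968366 to 77968549 and held 5 peaks. The first of them, at 77968366 to 77968417, had a log2 fold of clip over input of 4.06 (16.6-fold) and a −log10 p of 8.74, as the authors' columns were read by their ranges. It was followed by a gap of 42 bases and then by 4 abutting peaks of 17 to 29 bases. The abutting peaks had log2 folds of 3.80, 3.90, 3.27 and 3.04 in order of position. Their −log10 p in the same order were 3.74, 4.06, 4.60 and 5.17, so the 2 pieces of lower fold had the higher −log10 p. The last of them, at 77968521 to 77968549, stood just above the lower limit of the list, since no peak in it has a log2 fold under 3.

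The site farther from the border ran from 77968909 to 77969120 and held 8 peaks that abutted without a gap over 212 bases. Its log2 folds by position were 3.91, 4.19, 4.62, 4.52, 4.17, 3.97, 3.64 and 3.26, so that fold was highest in 1 inner piece and lower on each side of it. That piece, at 77968935 to 77968961, had the highest fold of any peak in the 7 spans (24.5-fold). It ranked 190 of 4227 in the RBFOX2 list by fold. The −log10 p of the 8 pieces were 5.68, 6.74, 6.41, 8.82, 9.68, 10.0, 10.3 and 7.20. The highest −log10 p in CCNI, 10.3 at 77969029 to 77969051 was thus not in the piece of highest fold but 4 pieces farther along, and it ranked 1177 of 4227 in the list.

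**Figure D1:**
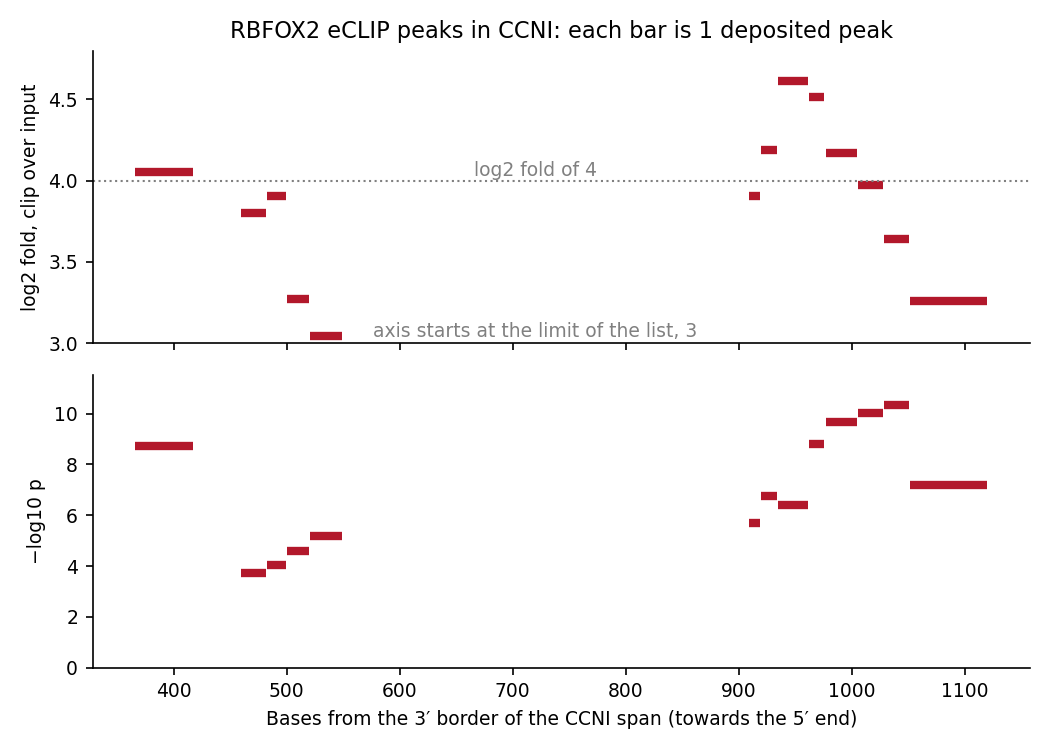
RBFOX2 peaks in CCNI by distance in bases from the 3′ border of the span, with log2 fold of clip over input above and −log10 p below. Each bar is 1 deposited peak, drawn to its width. In the site from 909 to 1120 bases the fold is highest at 4.62, and the −log10 p is highest farther along, at 10.3.

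Set beside the whole RBFOX2 list, the CCNI peaks had a median log2 fold of 3.91 (range 3.04 to 4.62, n = 13 peaks), and all 4227 RBFOX2 peaks had 3.48 (interquartile range 3.22 to 3.88). At or above a log2 fold of 4 stood 5 of the 13 CCNI peaks, 4 of them in the site farther from the border, and 19.3% of the list. The median −log10 p was 6.74 in CCNI (range 3.74 to 10.3) and 6.77 over the list. A −log10 p of at least 5 was met by 10 of 13 CCNI peaks and by 68.4% of the list.

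CCNI peaks were short pieces of longer sites. Their median width was 23 bases (range 11 to 69), and that of the list was 70 bases. A border shared with a neighbouring peak was found for 12 of the 13, and for 43.4% of the list. Another RBFOX2 peak lay within 1 kb of 13 of 13, and of 66.5% of the list. Among the 1836 RBFOX2 peaks that abut another, the median log2 fold was 3.61, the median width 46 bases and the median −log10 p 9.07, and 26.6% had a log2 fold of at least 4. Abutting pieces of one site may share reads, which the lists do not hold, so the 13 peaks cannot be taken as 13 separate observations of binding.

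**Figure D2:**
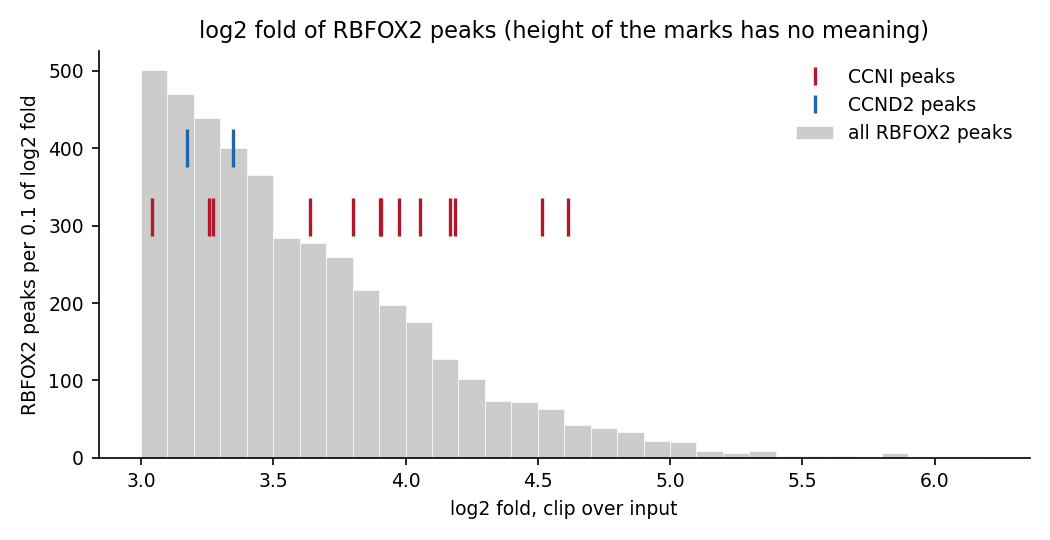
Number of RBFOX2 peaks per step of 0.1 in log2 fold of clip over input, over the 4227 peaks of the list (bars), with the 13 CCNI peaks and the 2 CCND2 peaks marked. CCNI peaks run from 3.04 to 4.62, and both CCND2 peaks lie at or below 3.35.

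The number of deposited peaks in CCNI was set beside that in other stretches of the RBFOX2 list. The genome was divided into tiles of 30 kb on each strand, of which 2033 held at least 1 RBFOX2 peak, with a median of 1. The tile with the CCNI peaks held 13 and shared place 12 with 6 other tiles. Tile borders were fixed, so this tile covers only the 3′ end of the CCNI span and lies mostly outside it. With tile borders shifted by 15 kb the place was also 12. With peaks within 50 bases joined, the tile held 2 sites and stood at place 168, so its place rests on how finely the peaks were split. The densest tile held 26. Of the 18 tiles with at least 13 RBFOX2 peaks, 5 held no TIA1 peak, the CCNI tile among them. The share without a TIA1 peak over all 2033 tiles was not counted. Whether the lack of TIA1 peaks is unusual for a tile therefore cannot be told. Counted as joined sites, the site of 8 peaks was one of 20 sites with at least that number among 2749, which is 0.728%. CCNI was chosen for this density, so its place is a description.

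**Figure D3:**
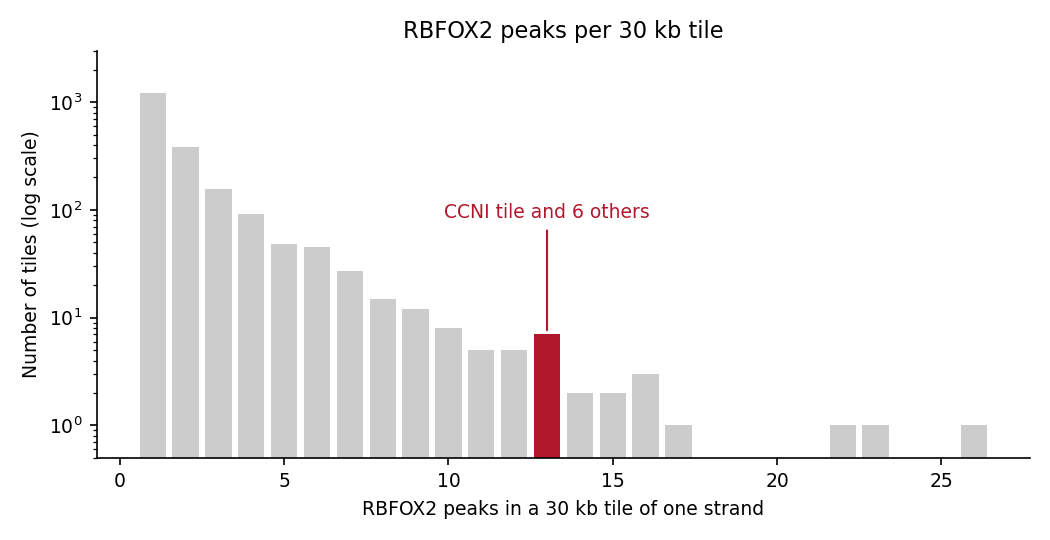
Number of 30 kb tiles of one strand (log scale) by the number of RBFOX2 peaks they hold. The tiles with 13 peaks, in red, comprise the CCNI tile and 6 others, and the densest tile holds 26.

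The 3 other tiles closest to CCNI in their number of RBFOX2 peaks also held 13, taken with the nearest number of TIA1 peaks first. A tile on the plus strand of chromosome 2 had its 13 peaks between 20646932 and 20648523. Their median log2 fold was 4.0, with a highest −log10 p of 27.0 and 0 TIA1 peaks. A tile on the minus strand of chromosome 4 had them spread over 16699 bases, between 1205294 and 1221992. Their median log2 fold was 3.54, and 1 TIA1 peak was present. A second tile on chromosome 2, on the minus strand, had them between 47387350 and 47387834. There the median log2 fold was 4.32, and 2 TIA1 peaks were present. The highest −log10 p in these 3 tiles lay between 27.0 and 31.7, above the 10.3 of CCNI. The genes at these positions were not analysed here.

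Other RBFOX2 peaks lay near CCNI on the opposite strand. The megabase of chromosome 4 from 77 to 78 Mb held 27 RBFOX2 peaks, of which 13 were those in CCNI and 13 lay on the plus strand. Of those on the plus strand, 11 fell between 77955953 and 77957961, about 10 kb outside the CCNI span, with log2 folds from 3.0 to 4.89. In the RefSeq table of GRCh38 the protein-coding gene next to CCNI on that side is SEPTIN11, and CCNG2 follows on the other. No RBFOX2 peak lay on the plus strand within the CCNI span, so both groups of peaks were separate in strand and position.

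CCND2 encodes cyclin D2, one of the D-type cyclins that activate CDK4 and CDK6. Its span runs from 4382001 to 4415000 on the plus strand of chromosome 12. It held 2 abutting RBFOX2 peaks that covered 207 bases and made a single site. The log2 fold was 3.17 (9.03-fold) for the peak at 4409423 to 4409524, with a −log10 p of 5.48. It was 3.35 (10.2-fold) for the peak at 4409525 to 4409629, with a −log10 p of 5.32. Both folds were under the list's median of 3.48, and both −log10 p were under its median of 6.77. The site lay 5372 to 5578 bases from the 3′ border of the span, against a last exon of 5491 bases and a 3′ UTR of 5341 bases in GENCODE. Since the border is rounded to a kilobase, these lengths do not settle whether the site is in the last exon.

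The remaining cyclin spans held no peak of either list on either strand. These were CCND1 and CCND3, the other D-type cyclins, CCNG1 and CCNG2, of which cyclin G1 is a well-known target of p53 and cyclin G2 is tied to cell cycle arrest, and CCNB1, the partner of CDK1 at mitosis. The nearest RBFOX2 peak on the strand was 72.4 kb away for CCNG1 and 120 kb for CCNG2. It was 2400 kb away for CCND1, 2080 kb for CCND3 and 3030 kb for CCNB1. The CCND3 span of 115 kb was the longest of the 7 and still held 0 peaks, and the CCNG1 span of 9 kb was the shortest. For CCNI and CCND2 the nearest RBFOX2 peaks outside the span on the gene's strand were 833 kb and 1330 kb away.

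TIA1 gave no peak in any of the 7 spans, and so 0 of the 15 RBFOX2 peaks shared a base with one, against 21.7% of the RBFOX2 list. This 0 follows from the absence of TIA1 peaks and is not a separate result. The 15 peaks joined to only 3 sites, so the 2 shares are not a measure of depletion. The nearest TIA1 peak on the strand was 45.4 kb from the CCNG1 span, and between 647 and 1610 kb from the other 6. Next to CCNI it was a peak at 77134920 to 77135019, 833 kb away, with a log2 fold of 3.23. An RBFOX2 peak with a log2 fold of 3.81 overlapped that one.

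Copies of the RBFOX element were present in every one of the 7 transcripts, those without an RBFOX2 peak included. The share of all principal transcripts with a copy anywhere was not counted, so this is not a trait particular to these genes. In the 3′ UTRs there were 2 in CCNI, 1 in CCNG1, 6 in CCNG2, 4 in CCND1, 8 in CCND2, 1 in CCND3 and 1 in CCNB1. Per kilobase of 3′ UTR this was 1.89 in CCNI, 1.63 in CCNB1, 1.5 in CCND2, 1.45 in CCNG2, 1.25 in CCND1, 0.993 in CCND3 and 0.743 in CCNG1, and 0.936 over the 3′ UTRs of 13671 principal transcripts. In the last 1000 bases of the transcript, CCNI, CCND2 and CCNB1 held 2 copies each, CCND1 and CCND3 held 1, and CCNG1 and CCNG2 held 0. Of 12610 principal transcripts with at least 1000 bases, 58.2% held at least 1 copy in that window and 22.4% at least 2. The number in CCNI in this window was reached by 22.4% of transcripts, CCNB1 among them. The 3′ UTR of CCNB1 is only 614 bases long, so the window ran past it. Of its 2 copies, 1 lay outside the 3′ UTR, whereas both CCNI copies lay in the 3′ UTR.

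**Figure D4:**
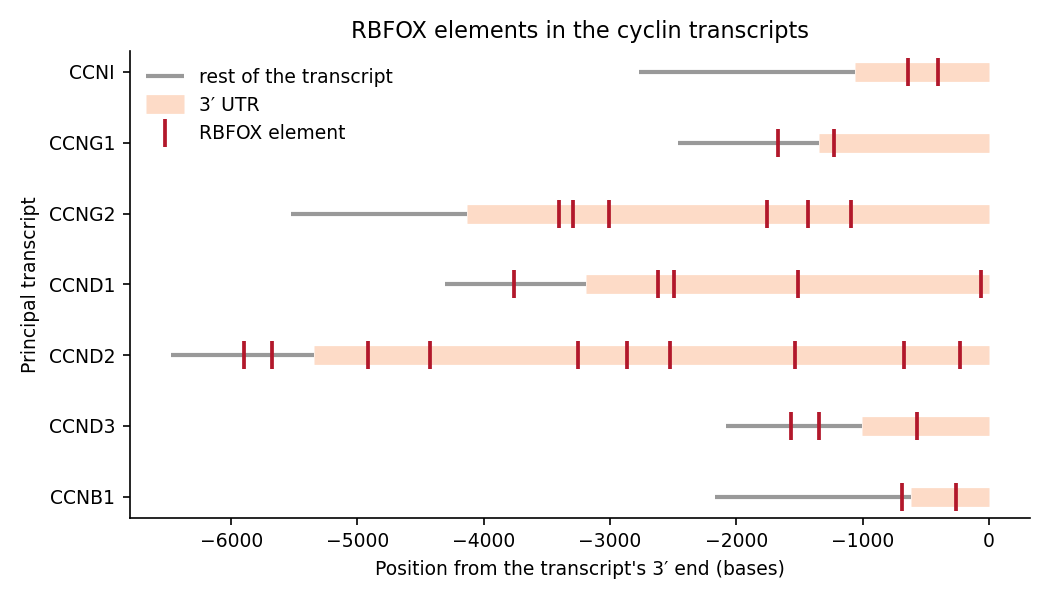
Principal transcripts of the 7 cyclin genes drawn from the 3′ end (0, right) in bases, with the 3′ UTR as a pale band and each copy of the RBFOX element as a red tick. CCNI has 2 copies, both in the 3′ UTR, and CCND2 has 10, of which 8 are in the 3′ UTR.

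Runs of at least 5 T, the kind of letters that TIA1 prefers in RNA, were counted in the same way. The 3′ UTR of CCND2 held 28 runs (5.24 per kilobase), that of CCNG2 19 (4.59), that of CCND1 14 (4.39), that of CCNI 4 (3.77), that of CCNG1 5 (3.71) and that of CCNB1 2 (3.26). CCND3 held 0. Over the 3′ UTRs of 13671 principal transcripts the density was 3.70 per kilobase. In the last 1000 bases of the transcript, CCND2 held 7 runs, CCNG1 and CCNG2 5 each and CCNI 4. CCNB1 held 3 there, CCND1 1 and CCND3 0. Of the principal transcripts with at least 1000 bases, 78.5% had a run in that window. In the 3′ UTRs, such runs were present in 6 of the 7 cyclin transcripts. The share of all 3′ UTRs with a run was not counted, and 78.5% refers to the last 1000 bases only. These counts of letters say nothing of whether either protein was bound.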

How the data were processed

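The authors deposited 1 peak list per protein, without a header, that joins both replicates; each row gives a position, a −log10 p-value, a log2 fold and a strand. The deposited −log10 p-value (lowest 3.01, limit 400) and the deposited log2 fold (lowest 3.00) were named from their ranges; clip over input is assumed for the fold, since the descriptions of those libraries name the file. All folds and p-values are the authors' own. Per the submitters' processing notes the build was hg19 and the tools included STAR 2.4.0i, SAMtools 1.6, cutadapt 1.14 and UMI-tools 1.0.0; no peak caller is named in those notes.

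A peak belonged to a gene when it shared at least 1 base with the span on the gene's strand. Peaks at most 50 bases apart were joined. Every gene and every CCNI and CCND2 peak is named, and the tiles likest to CCNI were those nearest in RBFOX2 and then TIA1 peaks. Members and lists were chosen with earlier results of these data known. With 1 joint list per protein, no test between groups was possible. Counting was tested on simulated data with planted peaks. Annotation was on GRCh38 with no genome sequence, so exons, peak sequences and other cyclin genes were not analysed here; transcripts were GENCODE release 29, 1 per gene (APPRIS principal, longest). Letter counts were added after the peaks were seen. Python 3.11.15, pandas 2.3.3, numpy 2.4.6 and matplotlib 3.10.9 were used.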

Additional observations from a re-analysis of the deposited data

How the results depend on the processing

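Of 51 alternatives to 9 results, 36 left the value alike, meaning a count within 1.5 times or a median equal to 2 decimals. The count of TIA1 peaks stayed at 0 in CCNI and over the 7 genes in all of them, as did both counts of overlap. Most of these zeros were fixed in advance, since a filter or joining cannot raise a count of 0. The counts of overlap had to be 0 because no span held a TIA1 peak. Only wider spans or the opposite strand could have raised the TIA1 counts. These zeros are among the 36, and those fixed in advance say nothing of robustness. With a log2 fold of at least 4, CCNI kept 5 RBFOX2 peaks and the 7 genes 5. Joining peaks within 50 bases left 2 sites in CCNI and 3 over the 7 genes. With the peaks of every tile joined in the same way, the CCNI tile stood at place 168 instead of 12. Counted as sites, it was thus not among the densest tiles. The opposite strand held 0 in CCNI and 0 over all spans, and widening the spans by 5 or 20 kb added none; the opposite strand and the 20 kb were added after the data were seen. The CCNI median log2 fold of 3.91 was 4.19 with a log2 fold of at least 4, 4.01 with a −log10 p of at least 5, 4.34 with peaks joined, where each site takes the highest value of its pieces by construction, and 3.80 without peaks under 20 bases. The median −log10 p of 6.74 was 8.74, 7.97, 9.54 and 7.20 in the same order. Leaving out peaks of low fold cannot lower the median fold, and likewise for −log10 p. The direction of those 2 shifts was therefore fixed in advance. No paired analysis was possible because replicates 1 and 2 were merged into one list per protein, and for that reason none was left out in turn. Depth is unknown, so a missing peak does not show missing binding.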
